A study of Mus musculus with 4 samples.

Results

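The genes described here encode the proteasome, the protease complex that degrades ubiquitin-tagged proteins, together with its inducible immune form, its activators and its assembly chaperones. They were taken as every gene named alone by a probe set whose symbol is Psm, a letter from a to g and a number, with the probe set of the highest mean representing each gene. This gave 48 of the 19937 genes named on the array, of which 5 belong to the immunoproteasome, 16 to the proteolytic core, 17 to the regulatory cap and 10 are other regulators or assembly factors. RNA was measured on 4 Affymetrix Mouse Gene 1.0 ST arrays, 2 from IfitmF-/- mice (labelled Ifitm-/-) and 2 from wild-type (WT) mice. The cells were splenic CD4 T cells of adult mice aged 6 to 8 weeks on a C57BL/6 background, isolated by negative magnetic selection and left resting, with no stimulus given. IfitmF-/- mice lack the Ifitm family, a cluster of interferon-induced genes for small membrane proteins that restrict viral entry, and lack it in every cell, so effects within and outside T cells cannot be told apart. The labels call the replicates independent, and each array held cells pooled from 2 mice. The spread between arrays therefore describes pools rather than single animals.

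The core of the proteasome is a barrel of stacked rings. The outer alpha rings gate entry and the inner beta rings hold the catalytic subunits Psmb6, Psmb7 and Psmb5. Interferon induces the replacement subunits Psmb9, Psmb10 and Psmb8, which take the place of these catalytic subunits in newly assembled particles and form the immunoproteasome. Interferon also induces Psme1 and Psme2, which form a ring-shaped activator that docks on the core without needing ubiquitin. Immunoproteasomes generate many of the peptides presented on MHC class I and are abundant in lymphocytes even without infection. The regulatory cap recognises ubiquitin, unfolds the substrate with a ring of ATPases and feeds it into the barrel.

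The deleted gene Ifitm3 had 4.61 and 4.36 log2 units in IfitmF-/- cells, against 9.26 and 8.91 in WT cells. Values throughout are log2 intensities after robust multi-array averaging (RMA), and levels of different probe sets are not comparable. Median intensity was 75.9 and 74.8 on the IfitmF-/- arrays and 77.1 and 78.1 on the WT arrays. Of the CD4 T cell markers, 5 were measured and averaged 11.58 and 11.57 log2 units on IfitmF-/- arrays, against 11.42 and 11.45 on WT arrays. Of these 5, Cd3d and Cd3g were called higher (0.59 each, adjusted p = 0.0284 and 0.0304) and Cd28 lower (-0.74, adjusted p = 0.0202). Genotype and sex cannot be told apart, as Xist was 4.86 and 4.43 log2 units in IfitmF-/- cells against 11.32 and 11.25 in WT cells, and the 3 Y-linked genes measured were higher in IfitmF-/- cells. Markers of other cells also differed between arrays. The 4 B cell markers measured averaged 8.21 and 8.86 log2 units on IfitmF-/- arrays and 9.82 and 8.15 on WT arrays, and the 4 NK cell markers averaged 8.16 and 7.87 against 7.61 and 7.19. The 3 erythroid markers measured averaged 10.40 and 10.29 against 8.68 and 9.65, and the 3 platelet markers 9.62 and 11.09 against 9.41 and 8.84. None of these B, NK, erythroid and platelet genes passed the test in limma, where 0 of 4, 3 of 4, 1 of 3 and 1 of 3 had an unadjusted p under 0.05. Of the 3 neutrophil markers, none overlapping between genotypes, Retnlg was called higher (1.83, adjusted p = 0.0136). All 3 plasma cell markers were lower at an unadjusted p under 0.05 (median change -0.66), as was 1 of 2 CD8 T cell markers, and of the 5 myeloid markers Lyz2 was higher at that level (1.34), whereas none of the 4 dendritic cell markers was. The part of sex and of these cells in the results below was not tested, and in bulk RNA fewer cells of a type and less RNA per cell cannot be told apart.

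Of the 48 proteasome genes, 6 were higher and 1 was lower in IfitmF-/- cells at an adjusted p under 0.05 (limma, Benjamini-Hochberg over 34760 probe sets), and 41 did not pass. The share called was 14.6%, against 8.57% of all genes (4.96% higher and 3.61% lower) and 14.3% of the probe sets at or above the median level (7.46% higher and 6.88% lower). Of the members, 45 lay at or above that level, and the share called was near that of these brighter probe sets. Most members lay well above the median, and no share matched for level was computed. The median change, IfitmF-/- minus WT, was 0.014 log2 units over the members and -0.020 over all genes. The arrays of the genotypes did not overlap for 37 members (77.1%), 22 of them higher and 15 lower, against 58.7% of all genes (27.9% higher and 30.8% lower) and 68.8% of the brighter probe sets (35.5% higher and 33.3% lower). Replicates differed little, with a median pooled SD of 0.082 log2 units over members and 0.087 over all genes. With any 1 of the 4 arrays left out, no probe set passed, and the lowest adjusted p of a member was then between 0.0842 and 0.140.

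**Figure D1:**
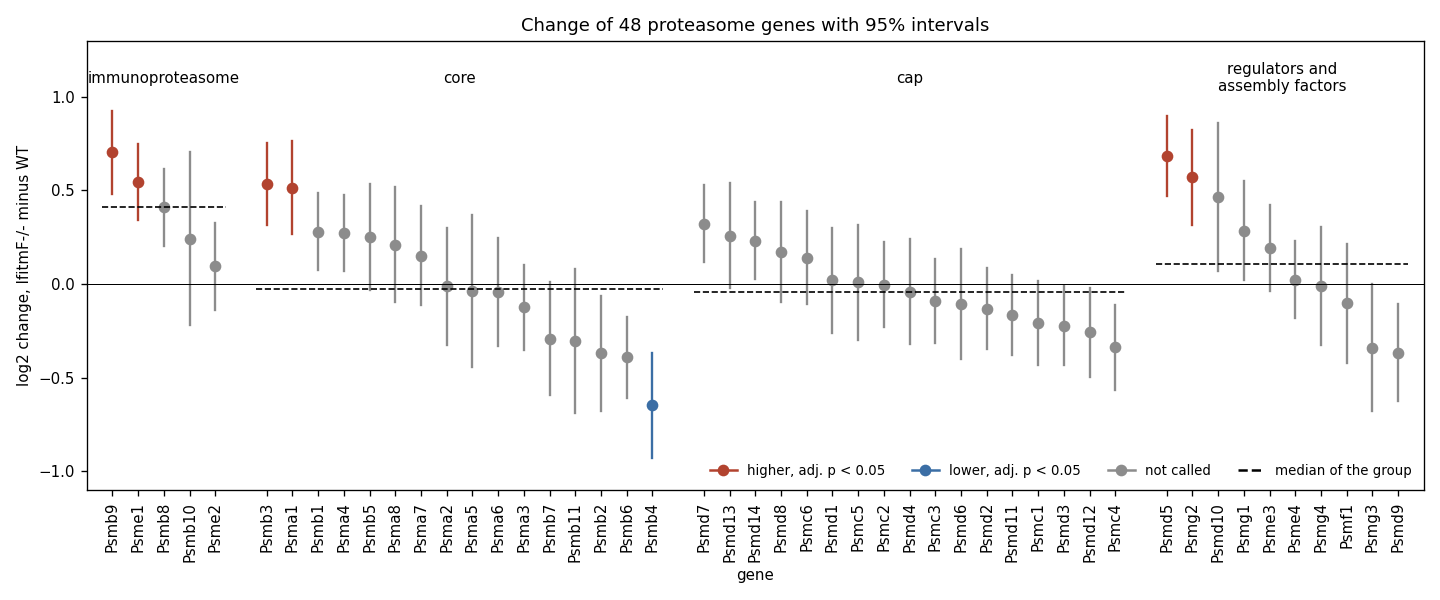
Log2 change, IfitmF-/- minus WT, of all 48 proteasome genes (n = 2 arrays per genotype), ordered within each group, with bars for the 95% interval from limma and a dashed line at the median of the group. The immunoproteasome genes all lie above 0 with a median of 0.41, whereas the core and cap genes lie on both sides of 0 with medians of -0.03 and -0.04.

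The 5 immunoproteasome genes had the highest median change of the groups, 0.41 log2 units. Psmb9 and Psme1 rose in IfitmF-/- cells, while Psmb8, Psmb10 and Psme2 did not pass the test. The share called was 40%, against 8.57% of all genes and 14.3% of the brighter probe sets, and rests on few genes. The arrays did not overlap for 4 of the 5, all higher in IfitmF-/- cells, against 77.1% of all members, 58.7% of all genes and 68.8% of the brighter probe sets.

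Psmb9 replaces the caspase-like subunit of the core and lacks that activity. It had 9.91 and 9.87 log2 units in IfitmF-/- cells, against 9.23 and 9.14 in WT cells. This was a rise of 0.70 ± 0.083 log2 units (SE, n = 2 arrays per genotype), or 1.63-fold, with an adjusted p of 0.0234 in limma and a 95% interval of 0.48 to 0.93. It was the member with the largest change in either direction.

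Psme1, the alpha subunit of the ring-shaped activator, had 10.85 log2 units on both IfitmF-/- arrays, against 10.30 on both WT arrays. The rise of 0.55 ± 0.076 log2 units (SE), or 1.46-fold, had an adjusted p of 0.0311 and a 95% interval of 0.34 to 0.75. Psme2 encodes the beta subunit that assembles with Psme1 in one ring. It had 10.72 and 10.71 log2 units in IfitmF-/- cells, against 10.56 and 10.68 in WT cells. Both IfitmF-/- arrays were above both WT arrays, but the difference of 0.09 log2 units was within its error (95% interval -0.14 to 0.33, adjusted p = 0.557). These partners lie on chromosome 14 with the single protein-coding gene Emc9 between them.

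Psmb8, the inducible chymotrypsin-like subunit, had 9.81 and 9.79 log2 units in IfitmF-/- cells, against 9.40 and 9.38 in WT cells. The gap of 0.41 ± 0.077 log2 units (SE) was large beside the spread of its replicates, with a 95% interval of 0.20 to 0.61. Its adjusted p of 0.0519 in limma missed the threshold, and lay between 0.0253 and 0.129 over the other processing choices that kept all arrays. Psmb10 is the inducible trypsin-like subunit. It had 9.48 and 9.76 log2 units in IfitmF-/- cells, against 9.56 and 9.20 in WT cells. These arrays overlapped, and its pooled SD of 0.23 log2 units was the widest of any member (change 0.24, 95% interval -0.22 to 0.71, adjusted p = 0.445). Within each genotype the array with more Psmb10 also had the higher mean of B cell, CD8 T cell, myeloid, dendritic cell and platelet markers. The means of NK, plasma cell, erythroid and neutrophil markers did not follow this order in both genotypes. The mean of the CD4 T cell markers had the reverse order in both. Of the single CD8 T cell and dendritic cell genes, Cd8b1 and Siglech went the other way on the IfitmF-/- arrays. So few arrays allow few orders, and the part of any of these cells was not tested.

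**Figure D2:**
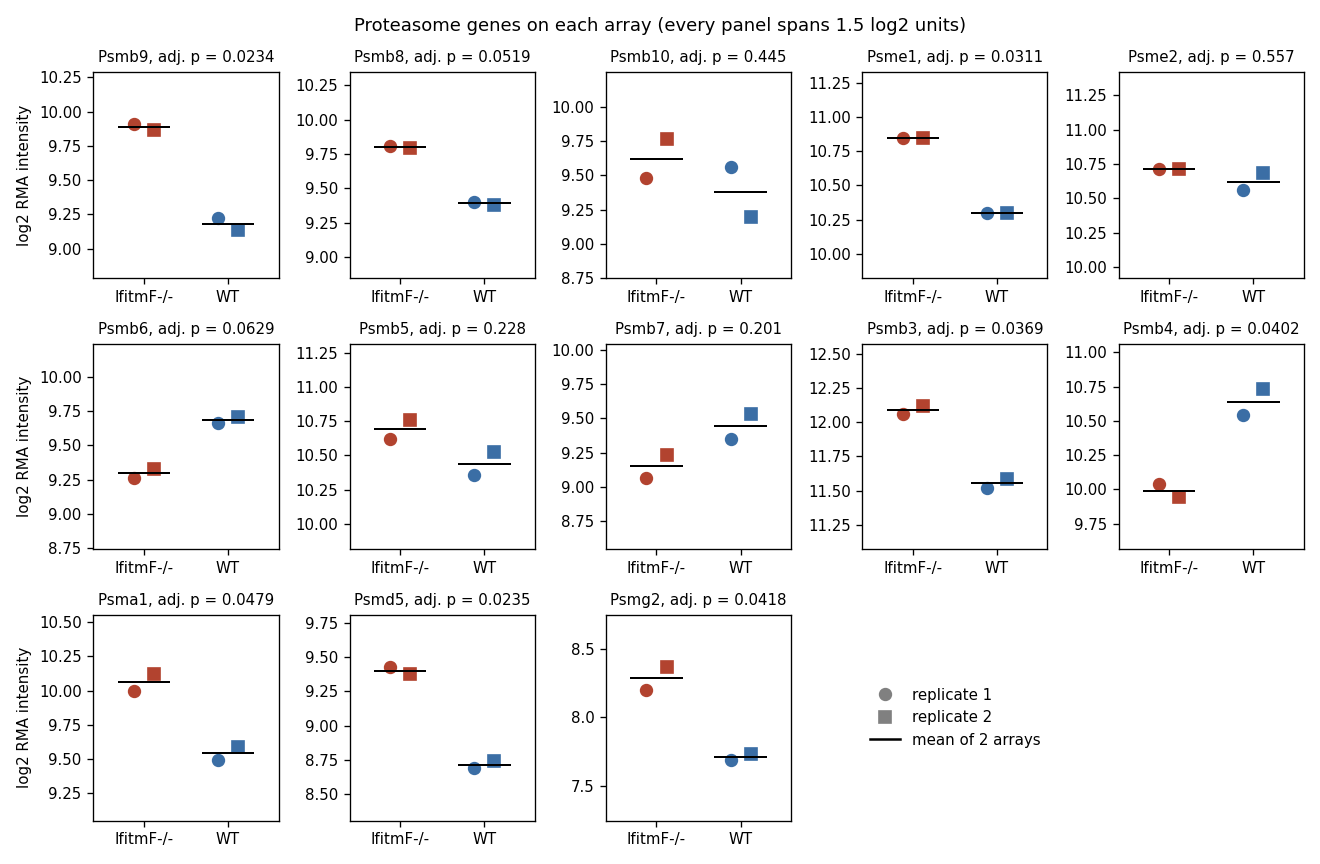
Log2 RMA intensity of 13 proteasome genes on each array, IfitmF-/- left and WT right, with circles for replicate 1, squares for replicate 2, a line at the mean of 2 arrays and every panel spanning 1.5 log2 units. Psmb9, Psmb8 and Psme1 have tight replicates that do not overlap between genotypes, whereas the Psmb10 arrays do.

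Psmb9 and Psmb8 lie in the MHC class II region of chromosome 17, in the gene order Psmb9, Tap1, Psmb8, Tap2. Tap1 and Tap2 encode the transporter that carries peptides into the endoplasmic reticulum. Tap1 had 10.04 and 9.94 log2 units in IfitmF-/- cells, against 9.55 and 9.67 in WT cells. The difference of 0.37 log2 units did not pass the test (adjusted p = 0.0904). Tap2 had 8.90 and 8.89 log2 units in IfitmF-/- cells, against 8.80 and 8.83 in WT cells (change 0.08, adjusted p = 0.592). Along this stretch the changes were thus 0.70, 0.37, 0.41 and 0.08 log2 units in gene order.

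The promoters of 4 members are shown because these genes are the interferon-inducible subunits with the clearest separation, Psmb9, Psmb8 and Psme1, and a core subunit called higher, Psmb3. Each is the RefSeq window of 300 bases on GRCm38.p6, 250 before and 50 after the start of transcription, written 5′ to 3′ on the strand of the gene, with any interferon response element (GAAA, any 2 bases, then GAAA) or gamma-activated site (TTCNNNGAA) in capitals.
Psmb9, chr17:34187281-34187580, minus strand: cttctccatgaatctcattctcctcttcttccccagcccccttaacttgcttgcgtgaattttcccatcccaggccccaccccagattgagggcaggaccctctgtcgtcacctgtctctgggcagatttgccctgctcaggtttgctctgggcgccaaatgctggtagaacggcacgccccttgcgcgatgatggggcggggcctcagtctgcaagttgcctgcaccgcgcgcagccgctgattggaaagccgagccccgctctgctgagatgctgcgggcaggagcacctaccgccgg
Psmb8, chr17:34197945-34198244, plus strand: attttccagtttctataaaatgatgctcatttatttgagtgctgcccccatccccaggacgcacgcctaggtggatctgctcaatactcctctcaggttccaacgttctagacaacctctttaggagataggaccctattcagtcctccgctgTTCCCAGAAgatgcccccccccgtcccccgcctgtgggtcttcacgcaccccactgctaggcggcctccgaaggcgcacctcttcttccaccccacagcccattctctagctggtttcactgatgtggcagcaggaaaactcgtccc
Psme1, chr14:55578244-55578543, plus strand: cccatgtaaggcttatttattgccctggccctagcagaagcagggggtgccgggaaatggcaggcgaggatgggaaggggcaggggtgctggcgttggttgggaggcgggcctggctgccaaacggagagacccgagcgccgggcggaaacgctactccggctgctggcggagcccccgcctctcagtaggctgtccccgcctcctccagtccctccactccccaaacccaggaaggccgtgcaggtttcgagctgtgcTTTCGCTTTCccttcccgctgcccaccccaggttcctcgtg
Psmb3, chr11:97703184-97703483, plus strand: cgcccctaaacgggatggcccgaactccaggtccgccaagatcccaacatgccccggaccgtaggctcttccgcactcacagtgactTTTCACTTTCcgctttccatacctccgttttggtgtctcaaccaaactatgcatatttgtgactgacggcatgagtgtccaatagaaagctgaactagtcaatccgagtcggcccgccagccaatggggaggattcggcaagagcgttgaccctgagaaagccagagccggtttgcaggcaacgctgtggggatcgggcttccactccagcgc

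The interferon response element is the letter pattern bound by factors of the interferon regulatory family, and the gamma-activated site is a pattern found in genes induced by interferon gamma. Both strands were searched. The capitals in the Psme1 and Psmb3 windows are interferon response elements read on the opposite strand, beginning at positions 10 and -163 from the start. The capitals in the Psmb8 window are a gamma-activated site beginning at position -97, and no 2 matched patterns overlap in these windows. The Psmb9 window held none of the searched patterns, and it shares 275 of its bases with the Tap1 window on the opposite strand.

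Of the 48 members, 40 had such a window. The interferon response element was in the windows of 5 of these genes (12.5%), namely Psmb3, Psmd4, Psmd9, Psme1 and Psmg4. This was 11.6% of the members' 43 windows, against 3.44% of all 32851 windows. The gamma-activated site was in those of Psmb8, Psmd2 and Psmg1 (7.5% of the genes and 6.98% of their windows), against 8.30% of all windows. The last pattern, the antioxidant response element (TGACNNNGC) bound by Nfe2l1 and Nfe2l2, was in the windows of 6 genes (15.0%), Psmb5, Psmb6, Psmc6, Psmd9, Psmd12 and Psme4. This was 14.0% of the members' windows, against 12.4% of all windows. Psmb3 and Psme1 rose, whereas Psmd4 and Psmg4, with the same element, had changes of -0.04 and -0.01 log2 units, and Psmd9 one of -0.37 (adjusted p = 0.101). A match describes the letters of the window only.

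The catalytic subunits that the inducible ones replace did not pass the test in either direction. Psmb6, the caspase-like subunit, had 9.26 and 9.33 log2 units in IfitmF-/- cells, against 9.67 and 9.71 in WT cells, a difference of -0.39 with an adjusted p of 0.0629. Psmb7, the trypsin-like subunit, had 9.06 and 9.24 log2 units in IfitmF-/- cells, against 9.35 and 9.53 in WT cells (change -0.29, adjusted p = 0.201). Psmb5, the chymotrypsin-like subunit, had 10.62 and 10.76 log2 units in IfitmF-/- cells, against 10.36 and 10.52 in WT cells (change 0.25, adjusted p = 0.228). The arrays of the genotypes did not overlap for any of these genes, with Psmb6 and Psmb7 lower and Psmb5 higher in IfitmF-/- cells. Such non-overlap was common, at 58.7% of all genes, 68.8% of the brighter probe sets and 77.1% of the members.

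Each inducible subunit was then set against the subunit it replaces as a log2 ratio within the same array, expressed relative to the WT mean. The Psmb9 to Psmb6 ratio was 1.15 and 1.04 on IfitmF-/- arrays, against 0.07 and -0.07 on WT arrays, so that the ratio was 2.14-fold higher in IfitmF-/- cells. The Psmb10 to Psmb7 ratio was 0.48 and 0.59 on IfitmF-/- arrays, against 0.27 and -0.27 on WT arrays (1.45-fold). The Psmb8 to Psmb5 ratio was 0.24 and 0.08 on IfitmF-/- arrays, against 0.09 and -0.09 on WT arrays (1.12-fold), and these arrays overlapped. The ratio of the activator subunits, Psme1 to Psme2, was 0.45 on both IfitmF-/- arrays, against 0.06 and -0.06 on WT arrays (1.37-fold). In a 2-sided exact permutation test, p was 0.333 for Psmb9 to Psmb6, Psmb10 to Psmb7 and Psme1 to Psme2 (0.444 after adjustment over the 4 ratios) and 0.667 for Psmb8 to Psmb5. The smallest p that 2 arrays against 2 allow is 0.333, so the design cannot reach the threshold.

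**Figure D3:**
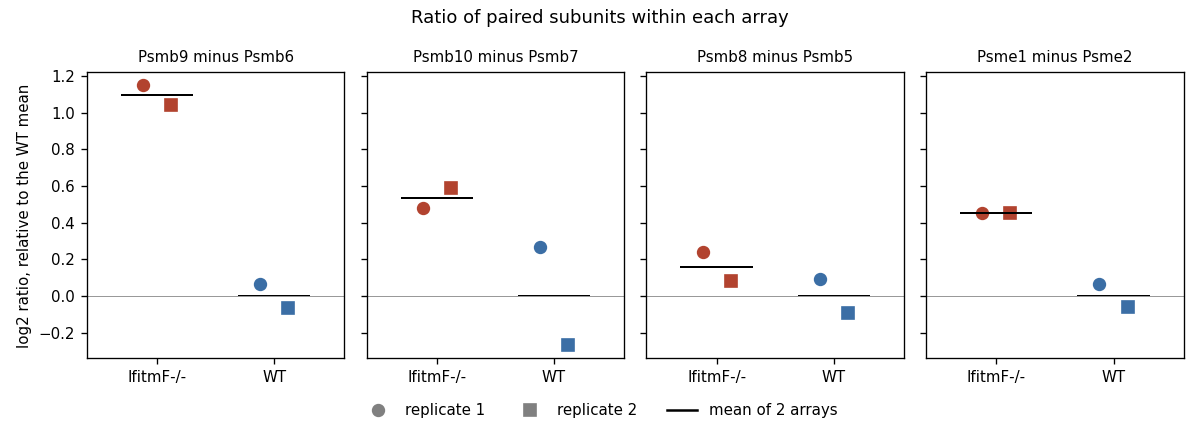
Log2 ratio of each inducible subunit to the subunit it replaces, and of Psme1 to Psme2, within each array and relative to the WT mean, with circles for replicate 1, squares for replicate 2 and a line at the mean of 2 arrays. The Psmb9 to Psmb6 ratio has the widest gap, with IfitmF-/- arrays at 1.15 and 1.04 and WT arrays at 0.07 and -0.07, while the Psmb8 to Psmb5 ratios overlap.

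Of the 16 core genes, 2 were higher and 1 was lower in IfitmF-/- cells, and the median change was -0.03 log2 units. The share called was 18.8%, against 8.57% of all genes and 14.3% of the brighter probe sets. Psmb3, a structural subunit of the beta ring, had 12.06 and 12.12 log2 units in IfitmF-/- cells, against 11.52 and 11.59 in WT cells. It rose by 0.53 ± 0.082 log2 units (SE), or 1.45-fold (adjusted p = 0.0369). A second probe set named for Psmb3 had 11.89 on both IfitmF-/- arrays, against 11.40 and 11.48 on WT arrays, and was also called (change 0.45, adjusted p = 0.0477).

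Psmb4, another structural beta subunit, was the only member called lower. It had 10.04 and 9.94 log2 units in IfitmF-/- cells, against 10.54 and 10.73 in WT cells. The change of -0.65 ± 0.11 log2 units (SE), 1.57-fold lower, had an adjusted p of 0.0402 and a 95% interval of -0.93 to -0.37. Psma1, which belongs to the alpha ring, had 9.998 and 10.12 log2 units in IfitmF-/- cells, against 9.50 and 9.59 in WT cells. It rose by 0.52 ± 0.092 log2 units (SE), or 1.43-fold (adjusted p = 0.0479). Psmb3 and Psmb4, both of the beta ring, thus changed in opposite directions.

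The genotypes did not overlap for any of the 7 beta-ring genes of the constitutive core, with Psmb1, Psmb3 and Psmb5 higher and Psmb2, Psmb4, Psmb6 and Psmb7 lower in IfitmF-/- cells, against non-overlap in 58.7% of all genes and 68.8% of the brighter probe sets. Of these, Psmb2 had a change of -0.37 (adjusted p = 0.138) and Psmb1 one of 0.28 (adjusted p = 0.111). In the 7 alpha-ring genes the genotypes did not overlap for 4, and those that were not called, Psma2 to Psma7, lay between -0.12 (Psma3) and 0.27 (Psma4). The 13 core genes not called had changes between -0.39 and 0.28 and adjusted p between 0.0629 and 0.961. Psma8 and Psmb11, which are the testis form of an alpha subunit and the catalytic subunit of the thymic cortex, were dim on every array. Psma8 had 5.35 and 5.16 log2 units in IfitmF-/- cells, against 4.96 and 5.13 in WT cells. Psmb11 had 5.34 and 5.01 log2 units in IfitmF-/- cells, against 5.40 and 5.56 in WT cells.

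None of the 17 cap genes passed the test in limma, and their median change was -0.04 log2 units. At an unadjusted p under 0.05, 2 were higher (Psmd7 and Psmd14) and 3 were lower (Psmc4, Psmd3 and Psmd12), against 25.8% of all genes (14.3% higher and 11.5% lower) and 39.3% of the brighter probe sets (21.1% higher and 18.1% lower). The arrays did not overlap for 12 of the 17 (70.6%), 5 higher and 7 lower in IfitmF-/- cells. This was near the 68.8% of the brighter probe sets, against 58.7% of all genes. Of the ATPases, which unfold the substrate, Psmc4 had the largest change, -0.34 (adjusted p = 0.0921), while Psmc2 and Psmc5 had changes of -0.0040 and 0.0083. Of the lid, which removes ubiquitin from the substrate, Psmd14, the deubiquitinase itself, had a change of 0.23 (adjusted p = 0.153) and Psmd7, its structural partner, one of 0.32 (adjusted p = 0.0837). The scaffold subunits Psmd1 and Psmd2 had changes of 0.02 and -0.13, and the ubiquitin receptor Psmd4 one of -0.04. The lid gene Psmd13 lies close to the deleted cluster on chromosome 7, with 3 protein-coding genes between it and Ifitm5. It had 9.37 and 9.22 log2 units in IfitmF-/- cells, against 8.96 and 9.11 in WT cells, and did not pass the test (change 0.26, 95% interval -0.02 to 0.54, adjusted p = 0.215).

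Of the 10 other regulators and assembly factors, 2 were higher in IfitmF-/- cells and none was lower, with a median change of 0.11 log2 units. The share called was 20%, against 8.57% of all genes and 14.3% of the brighter probe sets, and rests on few genes. The 2 called genes, Psmd5 and Psmg2, encode chaperones that act during assembly and are absent from the finished particle. Psmd5, a chaperone of the base of the cap, had 9.43 and 9.37 log2 units in IfitmF-/- cells, against 8.69 and 8.74 in WT cells. It rose by 0.68 ± 0.080 log2 units (SE), or 1.61-fold, with an adjusted p of 0.0235. Psmg2, a chaperone that pairs with Psmg1 to build the alpha ring, had 8.20 and 8.36 log2 units in IfitmF-/- cells, against 7.69 and 7.73 in WT cells. It rose by 0.57 ± 0.095 log2 units (SE), or 1.49-fold (adjusted p = 0.0418).

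The other chaperones did not pass the test. Psmg1 had 7.83 and 7.97 log2 units in IfitmF-/- cells, against 7.56 and 7.68 in WT cells (change 0.28, adjusted p = 0.166). The cap chaperones Psmd10 and Psmd9 differed in sign, at 0.47 (adjusted p = 0.141) and -0.37 (adjusted p = 0.101), and Psmd10 is X-linked. The core chaperones Psmg3 and Psmg4 had changes of -0.34 and -0.01. The alternative activators Psme3 and Psme4 had changes of 0.19 and 0.02, and Psmf1, known as an inhibitor of the core in vitro, one of -0.10.

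Of the 48 members, 43 were measured by 1 probe set. Apart from Psmb3, those with several were Psma3 (-0.12, -0.04 and -0.05), Psma5 (-0.04 and -0.13), Psmc1 (-0.21 and -0.09) and Psmd2 (-0.13 and -0.20), none of them called. Probe sets named for the same gene may read near-identical copies elsewhere in the genome, so these values are uncertain as to their source.

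Genes that work with the proteasome outside the Psm symbols were counted from a separate list of 29, of which 20 were measured. Of these, 1 was higher and 2 were lower in IfitmF-/- cells (15.0%). This was again near the 14.3% of the brighter probe sets, against 8.57% of all genes. Nfe2l2, a stress-responsive transcription factor with proteasome genes among its targets, had 9.87 and 9.91 log2 units in IfitmF-/- cells, against 8.50 and 8.40 in WT cells. It rose by 1.44 log2 units, or 2.71-fold (adjusted p = 0.0131). Zfand2a, a stress-induced zinc finger protein that associates with the cap, had 9.95 and 10.06 log2 units in IfitmF-/- cells, against 12.22 and 12.23 in WT cells. It was 4.67-fold lower, the largest change of the list (-2.22, adjusted p = 0.0090). Ubqln1, a shuttle that carries ubiquitinated proteins to the cap, had 9.38 and 9.40 log2 units in IfitmF-/- cells, against 9.98 and 9.93 in WT cells (change -0.57, adjusted p = 0.0304). Pomp, which matures newly built cores, had 8.93 and 9.17 log2 units in IfitmF-/- cells, against 8.77 and 8.73 in WT cells. Its change of 0.30 (adjusted p = 0.186) lay between 0.18 and 0.42 with single arrays left out. Nfe2l1, which drives proteasome genes when the proteasome is inhibited, had 8.56 and 8.60 log2 units in IfitmF-/- cells, against 8.34 and 8.19 in WT cells (change 0.31, adjusted p = 0.127).

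Of the 7 genes measured that induce the immunoproteasome or carry its peptides onward, none was called higher and 1 was lower in limma. This was 14.3%, as among the brighter probe sets, against 8.57% of all genes. At an unadjusted p under 0.05, 2 were higher (Tap1 and Erap1) and 1 was lower (Irf1), against 25.8% of all genes and 39.3% of the brighter probe sets in either direction. Irf1, an interferon-induced factor that activates Psmb9 and Tap1, had 10.13 and 9.996 log2 units in IfitmF-/- cells, against 10.66 and 10.63 in WT cells. It fell by 0.58 log2 units (adjusted p = 0.0376), and its second probe set had a change of -0.32 (adjusted p = 0.195). Erap1, the peptidase that trims peptides after transport, had a change of 0.40 (adjusted p = 0.0646). B2m, the light chain of MHC class I, had 13.48 and 13.47 log2 units in IfitmF-/- cells, against 13.32 and 13.30 in WT cells (change 0.16, adjusted p = 0.274). Nlrc5, the transactivator of MHC class I genes, had 19 probe sets with changes between -0.48 and 0.11, of which most were below 0 and 1 was called lower. The brightest, which stands for the gene in the counts, had the highest change of these, 0.11 (adjusted p = 0.553).

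**Figure D4:**
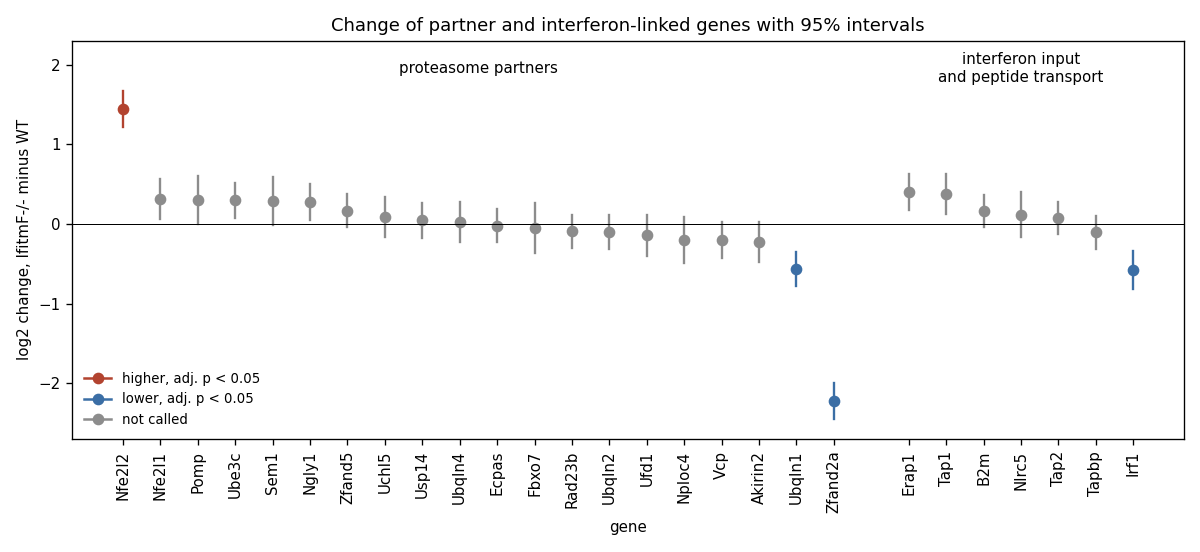
Log2 change, IfitmF-/- minus WT, of 20 proteasome partners and of 7 interferon-linked and peptide transport genes, with bars for the 95% interval from limma (n = 2 arrays per genotype). Nfe2l2 at 1.44 and Zfand2a at -2.22 lie far outside the other genes, and Irf1 lies below 0 at -0.58.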

How the data were processed

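RNA from 4 preparations of CD4 T cells was hybridised to 1-colour arrays, and per the submitters' processing notes the authors normalised the arrays by RMA with the affy package (versions not given in the sources used here). Their deposited values are linear intensities per probe set, already background-corrected and quantile-normalised by the authors, so a shift shared by all transcripts is not visible. They were converted here to log2 units. Columns were mapped to samples by title, and 0 columns were left unmapped. Gene names came from the platform table, updated through RefSeq GRCm38.p6. Of 34760 probe sets, 21640 name 1 gene, 1321 several and 11799 none, and 21553 of the first were found in RefSeq. A gene was represented by its probe set of highest mean, and a probe set naming Psme2 jointly with another gene was left out.

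IfitmF-/- and WT were compared with lmFit and eBayes in limma 3.58.1 (R 4.3.3) over all probe sets, with 2 residual and 2.39 prior degrees of freedom, Benjamini-Hochberg adjustment and a threshold of 0.05. The steps were tested on simulated data. The number of arrays limits precision. Values in every array were given for the immunoproteasome genes, their constitutive counterparts and every other member called. From the partner and interferon lists, called genes and Pomp, Nfe2l1, Tap1 and Irf1 were named, and other genes named for position, role or several probe sets were added after their values were seen. Members and lists were chosen with earlier results of these data known. The alternatives were eBayes with trend or robust estimation, repeated quantile normalisation, median centring, leaving out dim probe sets, other handling of probe sets, a replicate block, the methods' thresholds on fold and range, an equal-variance test, and leaving out each array.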

Additional observations from a re-analysis of the deposited data

How the results depend on the processing

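The 7 called members remained called under eBayes with trend, robust eBayes, repeated quantile normalisation, median centring, leaving out dim probe sets, the use of probe sets of 1 gene only and the mean of all probe sets of a gene, with 7 to 10 members called in all, and none of the 20 genes recomputed one by one (the 13 members and the 5 partners and 2 interferon-linked genes named for their calls or by rule) changed direction under any alternative. Members called lower, all in the core, numbered 2 in place of 1 with trend, the dim filter, probe sets of 1 gene only and gene means (Psmb6 joined Psmb4), and cap members called higher numbered 1 in place of 0 under the last 3 of these (Psmd7). Median centring shifted the median of all probe sets by 0.04 log2 units, so that members with changes as close to 0 as Psmd4, Psmc2 and Psmg4 change sign, and gave median changes of 0.45 for the immunoproteasome, 0.0019 for the cap and 0.15 for regulators and assembly factors, and the dim filter gave 0.19 for that last group. No paired preparation is given by the labels, and deviations of same-numbered arrays correlated at -0.12. With the replicate number as a block, 0 members in place of 7 and 0 partners in place of 3 were called in limma (17 members at an unadjusted p under 0.05, lowest adjusted p 0.0766). A crossed replicate block, chosen after seeing the data, called 975 probe sets in place of 2930 and 0 members (19 unadjusted). The equal-variance test called 0 members and 0 partners (16 members unadjusted). The methods' thresholds of over 2-fold and a range of 250 units left 0 members and 2 partners. The paper's supplementary list of genes of interest, drawn from its differentially expressed genes, does name Psmb3, Psmb9 and the partner Nfe2l2. It also holds entries printed as Psmel and Psm5, which may stand for members. Psmb3 and Psmb9 were called here in limma, but their folds of 1.45 and 1.63 were under the threshold of 2. Nfe2l2, at 2.71-fold, was over it. With the fold threshold the list was thus not reproduced here for Psmb3 and Psmb9. Why the paper's list holds them was not tested. Leaving out each array in turn gave counts from 0 to 0 for members, core, immunoproteasome and partners in limma (9 to 15 members unadjusted), and median changes between -0.10 and 0.092 for the core and between -0.12 and 0.0087 for the cap, so the sign of both medians depends on single arrays. In these fits the lone array is assumed to vary like the other genotype. The fits that lost calls had fewer arrays or degrees of freedom, and the cause of the loss was not tested. Intensities of dim genes such as Psma8 and Psmb11 are limited by background.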
